A study of Homo sapiens with 24 samples.

Results

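HEK293T cells cultured in a dual-axis rotating capillary container (DRCC) turning at 1 rpm were compared with HEK293T cells of a 2D culture by RNA sequencing. The members are the 6 libraries with these titles, 3 of each format, out of 24 in the series. Expression was read for 12127 of the 26450 genes in the deposited table, those with at least 1 FPKM (fragments scaled to gene length and library size) in at least 3 of the 6 libraries. Titles and this level filter chose them, not a difference between formats, although a gene expressed in 1 format alone could pass the filter. There were 792 genes at the filter level in the 3 DRCC libraries and in no 2D library, and 69 the other way round. Such genes passed by being higher in 1 format, so their tests are no support. They fill 36 places in 21 of the 43 gene lists below. Counts without them are given for several lists, and the remaining list counts include them. HEK293T is a line of human embryonic kidney cells transformed with adenoviral DNA and carrying the SV40 large T antigen, a viral protein that binds p53 and the retinoblastoma protein. The whole series holds this line and PANC-1, a pancreatic ductal carcinoma line, each in 4 formats with 3 libraries a format: DRCC at 1 rpm, DRCC at 30 rpm, AggreWell and 2D. AggreWell is a plate of microwells in which cells settle and form spheroids of even size. No label gives seeding density, medium or time in culture, and nothing says that the 3 libraries of a format came from separate cultures, so that p-values measure the spread between libraries, which may be technical. Below, DRCC means the HEK293T libraries at 1 rpm unless another speed or line is named.

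Cells that grow as spheroids meet gradients of nutrients, oxygen and waste, and they attach to one another rather than to plastic. Cells that run short of an amino acid or fold proteins poorly slow translation and make the transcription factor ATF4, which turns on amino acid transporters, biosynthetic enzymes and tRNA synthetases. Growing cells on plastic usually show high levels of glycolytic enzymes, ribosome assembly factors and lipid synthesis enzymes, while TXNIP, an arrestin that draws glucose transporters off the cell surface, follows glucose metabolites through the factors MondoA and ChREBP.

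In DRCC, most genes of the ATF4 programme, the arrestins TXNIP and ARRDC4 and most immediate early genes were higher than in 2D, and most genes for glycolysis, oxidative phosphorylation, ribosome assembly, the proteasome and cholesterol synthesis were lower. A gene was counted as risen or fallen where limma on log2(FPKM + 1) gave a Benjamini-Hochberg adjusted p under 0.05. By this rule 10226 of 12127 genes changed (84.3%), 6368 upward (52.5%) and 3858 downward (31.8%). At least a 2-fold change on the same scale was met by 1529 risen genes (12.6%) and 335 fallen ones (2.76%), and the median gene was higher by 0.18 in log2. For 10332 genes (85.2%) the 3 libraries of a format did not overlap those of the other. With so many genes past the threshold, the size of a change and its place against 0.18 carry more than the call itself. Counts of a list are read beside the 52.5% risen and 31.8% fallen of all genes. Lack of overlap in a named gene is read beside the 85.2%.

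The set of 15 largest rises, like that of the 15 largest falls, was drawn from genes whose formats did not overlap, so the lack of overlap in them is no finding. It was led by NGFR, the low-affinity receptor for nerve growth factor. NGFR stood at 39.1, 38.6 and 40.2 FPKM in the 3 DRCC libraries, against 0.800, 1.1 and 1.11 FPKM in the 3 2D libraries, a log2 change of 4.33 ± 0.07 (SE, n = 3 each; adjusted p = 1.3e-09). All 3 DRCC libraries were far above all 3 2D libraries. INHBE, which encodes a subunit of activin E, was at 25.5, 24.7 and 23.9 FPKM in DRCC, against 0.460, 0.416 and 0.515 FPKM in 2D (log2 change 4.14 ± 0.05), and it passed the level filter through the DRCC libraries alone, like G0S2, TCIM, ASNS, HES5 and GDF15 of the same set. The uncharacterised C11orf96 reached 32.2 ± 0.680 FPKM in DRCC and 1.71 ± 0.175 FPKM in 2D (mean ± SD, n = 3 each, here and below), and CALCB, the gene for the beta form of calcitonin gene-related peptide, 122 ± 3.2 FPKM in DRCC and 10.7 ± 0.307 FPKM in 2D. G0S2, an inhibitor of triglyceride lipase, was at 17.6, 17 and 17.7 FPKM in DRCC, against 0.852, 0.965 and 0.492 FPKM in 2D. SAT1, which acetylates polyamines for breakdown and export, was at 157, 154 and 159.8 FPKM in DRCC, against 16.4, 14.6 and 15 FPKM in 2D, 10.2-fold higher. TCIM, a regulator of transcription and of Wnt signalling, was at 9.6, 11.3 and 10.1 FPKM in DRCC and at 0.0281, 0.0420 and 0.0277 FPKM in 2D, where the values stand for 2, 3 and 2 fragments, so no fold is given. The other members of this set (TXNIP, SLC7A11, ATF3, ASNS, ARRDC4, HES5, GDF15 and TOP2A) belong to the groups described next.

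**Figure D1:**
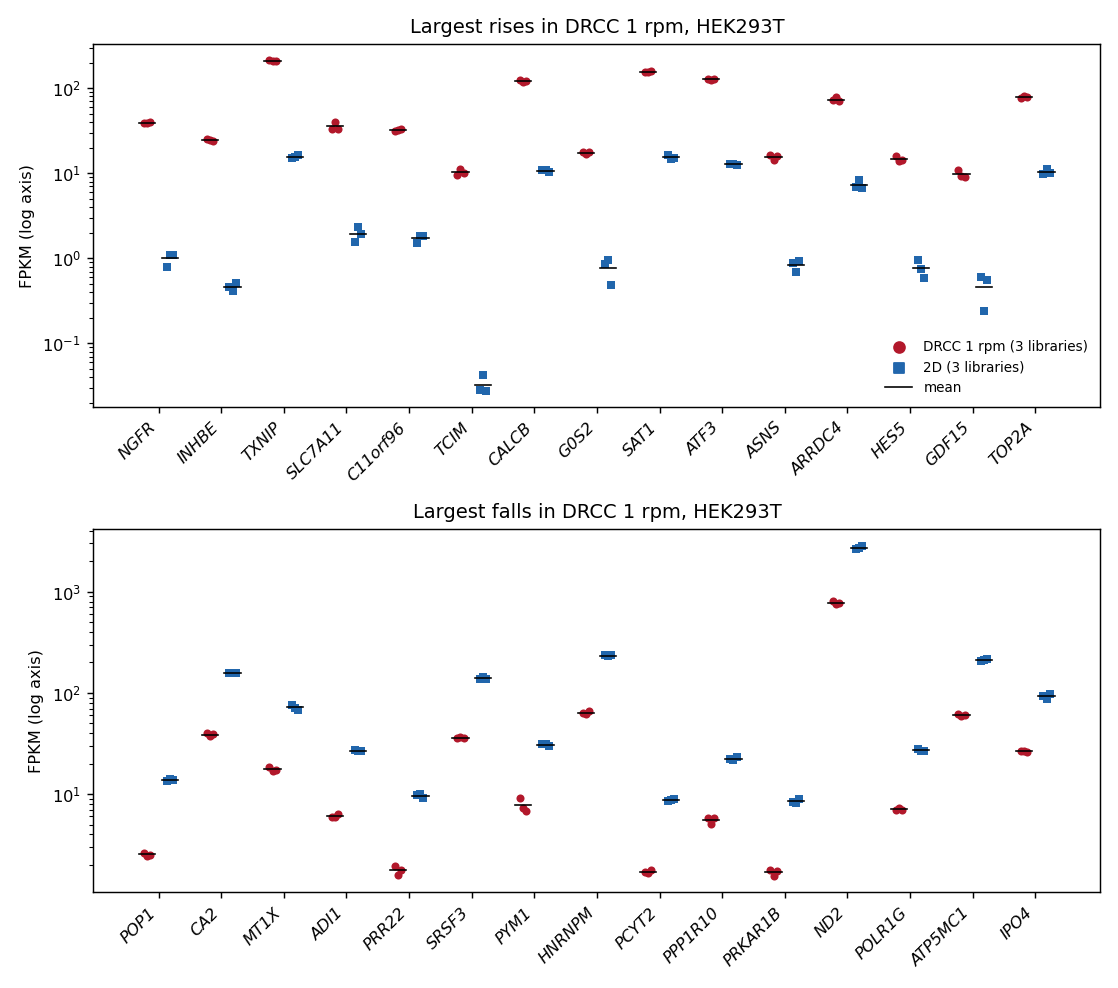
FPKM of each of the 3 DRCC 1 rpm and 3 2D libraries of HEK293T cells on a log axis (points, with a line at the mean) for the sets of 15 largest rises and 15 largest falls among protein-coding genes, ordered by log2 change. NGFR has the largest rise (4.33) and POP1 the largest fall (-2.06), and the 30 genes were drawn from those whose formats do not overlap.

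The largest falls were smaller than the largest rises and came from several processes. POP1, the scaffold protein of RNase P and RNase MRP, was at 2.61, 2.45 and 2.52 FPKM in DRCC, against 13.3, 14 and 13.8 FPKM in 2D (log2 change -2.06 ± 0.04, adjusted p = 4.6e-09). The carbonic anhydrase gene CA2 was at 39.7, 37.1 and 39.2 FPKM in DRCC, against 156, 158 and 158 FPKM in 2D. MT1X, a metallothionein that binds zinc and copper, was at 18.6, 16.9 and 17.2 FPKM in DRCC, against 76.2, 71.4 and 68.1 FPKM in 2D. RNA-binding proteins were among them: the splicing factor SRSF3 averaged 36.2 ± 0.565 FPKM in DRCC and 139.9 ± 4.19 FPKM in 2D, and HNRNPM, which binds pre-mRNA, averaged 63.9 ± 2.43 FPKM in DRCC and 234 ± 3.87 FPKM in 2D. IPO4, an importin that carries ribosomal proteins and histones into the nucleus, averaged 26.5 ± 0.514 FPKM in DRCC and 92.5 ± 4.63 FPKM in 2D. ADI1, an enzyme of the methionine salvage pathway, averaged 6.08 ± 0.291 FPKM in DRCC and 26.7 ± 0.319 FPKM in 2D. PCYT2, which makes the activated form of ethanolamine for phospholipids, averaged 1.71 ± 0.0789 FPKM in DRCC and 8.75 ± 0.164 FPKM in 2D. PYM1, PPP1R10, PRKAR1B, PRR22, POLR1G, ATP5MC1 and the mitochondrially encoded ND2 complete the set, with log2 changes between -1.93 (PRR22) and -1.77 (ATP5MC1).

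The libraries held, as recovered from the FPKM values, 35020379 to 35675959 fragments in DRCC and 38778091 to 39345190 in 2D. Pearson's r of log2 values across genes was 0.997 to 0.998 within DRCC, 0.997 to 0.999 within 2D and 0.926 to 0.939 between formats, with genes not being independent replicates. Mitochondrially encoded genes took 3.47% ± 0.091 of fragments in DRCC and 4.77% ± 0.085 in 2D, cytosolic ribosomal protein genes took 7.38% ± 0.133 in DRCC and 8.53% ± 0.137 in 2D, and the 50 most abundant genes took 11.3% ± 0.162 in DRCC and 14.5% ± 0.244 in 2D. Each of these shares had p = 0.1 in an exact two-sided permutation test, the smallest p that 3 against 3 allows. Of 16 HEK293T markers 15 were in the table and 11 were at 1 FPKM or more, and their summed level was 113 FPKM in each DRCC library, against 95.9 to 99.0 in 2D and a mean of 24.7 in PANC-1 2D. The 20 PANC-1 markers summed to 152 to 166 FPKM in DRCC and 94.2 to 102 in 2D, against 3667 in PANC-1 2D, with KRT19 and CD44 listed at 0. Fibroblast markers summed to 6.43 to 7.32 FPKM in DRCC and 3.63 to 3.79 in 2D with COL1A2 listed at 0, blood cell markers to 1.01 to 1.23 in DRCC and 0.587 to 0.732 in 2D with CD3E and PTPRC listed at 0, and endothelial markers to at most 0.371 in every library. Podocyte markers summed to 8.52 to 9.15 FPKM in DRCC and 8.09 to 8.43 in 2D, proximal tubule markers to 2.36 to 2.72 in DRCC and 1.81 to 1.89 in 2D, and collecting duct markers to 4.66 to 5.17 in DRCC and 3.82 to 4.14 in 2D. The part of these shifts in the results was not tested.

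How the libraries are scaled moved the balance of rises and falls. Of all changed genes 62.3% were higher in DRCC with the deposited scaling, 49.97% after median-ratio scaling (5075 higher, 5081 lower), 46.1% after quantile normalization (4517 higher, 5280 lower) and 72.2% with mitochondrially encoded genes left out of the total (7530 higher, 2904 lower). The median of all genes was 0.18 with the deposited scaling, 0.003 after median-ratio scaling, -0.04 after quantile normalization and 0.33 without the mitochondrially encoded genes. Median-ratio scaling thus takes 0.18 off the median gene, and a list's median is read against 0.18 rather than against 0. GC content moved with the change too: the median log2 change was 0.68 in the quintile of genes with the lowest GC content, 0.32, 0.02 and -0.09 in the next quintiles and -0.01 in the highest. In the lowest quintile 32.0% of genes rose at least 2-fold, against 4.22% in the middle one. By annotated length the medians ran from -0.10 in the shortest quintile to 0.44 in the longest, and by level from 0.37 in the lowest quintile to -0.28 in the highest. With the trend on GC content and length removed, a step added after the data were seen, 4683 of 11718 genes rose and 5179 fell, so 47.5% of changes were upward. Gene groups of low GC content are therefore given with and without this trend wherever the values differ in sign or by more than 1.5 times. The part of RNA quality or library making in this trend was not tested.

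**Figure D2:**
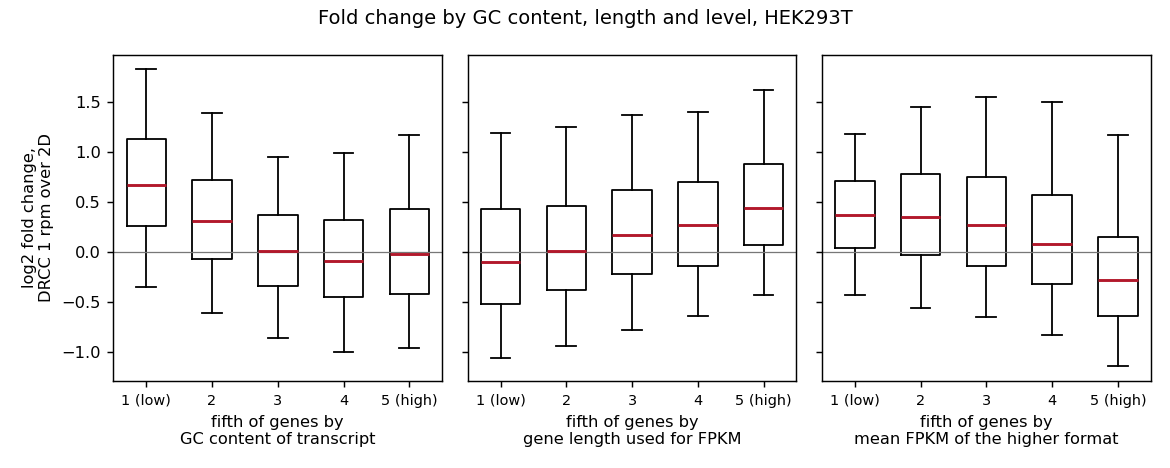
Log2 change, DRCC 1 rpm minus 2D, of the tested genes by quintile of GC content, annotated length and mean level; the red line is the median, boxes span the quartiles and whiskers the 5th to 95th percentile. The median is 0.68 in the quintile of lowest GC content and -0.01 in the highest, and it is 0.37 at the lowest level and -0.28 at the highest.

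Targets of ATF4 had the highest median of the lists with the deposited scaling, but with the GC and length trend removed the MAPK feedback and neuronal lists (0.78 and 0.77) stood above them. Of 27 tested genes 25 rose (against 52.5% of all genes) and 2 fell (against 31.8%), with a median log2 change of 1.23 beside 0.18 for all genes, or 0.74 with the GC and length trend removed, and 15 rose at least 2-fold. Without 3 members that passed the level filter through DRCC alone, 22 of 24 rose and 2 fell, with a median of 1.06. ATF4 itself is controlled mainly through translation of its mRNA, and its transcript differed little: 117, 112 and 115 FPKM in DRCC, against 105, 99.8 and 104 FPKM in 2D (log2 change 0.15 ± 0.03). Its relatives differed more. ATF3, a stress-induced factor of the same class, was at 129, 125 and 128 FPKM in DRCC, against 12.8, 12.7 and 12.6 FPKM in 2D, 10.03-fold higher (adjusted p = 1.5e-10). DDIT3, which encodes the factor CHOP, averaged 26.8 ± 0.815 FPKM in DRCC and 7.25 ± 0.402 FPKM in 2D, and the CEBP family members CEBPB and CEBPG rose by 1.24 and 1.43 in log2. ATF5, a close relative under similar translational control, fell: it averaged 1.73 ± 0.125 FPKM in DRCC and 3.84 ± 0.246 FPKM in 2D.

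Amino acid transporters and synthetic enzymes of this programme rose by very different amounts. SLC7A11, the cystine importer, was at 33.6, 40.2 and 33 FPKM in DRCC, against 1.57, 2.31 and 1.93 FPKM in 2D, 18.4-fold higher (log2 change 3.64 ± 0.10, adjusted p = 1.2e-08). The spread within each format was small beside this gap. Its partner chain SLC3A2 averaged 158 ± 5.74 FPKM in DRCC and 98.8 ± 1.7 FPKM in 2D, and SLC7A5, the leucine transporter that pairs with the same chain, 93 ± 2.48 FPKM in DRCC and 77.8 ± 1.68 FPKM in 2D. The neutral amino acid transporters SLC1A4 and SLC38A2 rose by 1.43 and 1.23 in log2. ASNS, asparagine synthetase, was at 16.4, 14.5 and 15.8 FPKM in DRCC, against 0.891, 0.689 and 0.941 FPKM in 2D, 18.5-fold higher. CTH, which makes cysteine from cystathionine, averaged 30.5 ± 0.338 FPKM in DRCC and 7.82 ± 0.395 FPKM in 2D. The serine pathway moved less: PSAT1 and PHGDH rose by 0.87 and 0.47, and SHMT2, the mitochondrial serine hydroxymethyltransferase, fell by 0.27. MTHFD2, a mitochondrial folate enzyme, rose by 0.83.

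Feedback and effector genes of the same stress response were also higher. CHAC1, which breaks down glutathione, was at 9.69, 8.85 and 9.08 FPKM in DRCC, against 0.905, 0.943 and 0.930 FPKM in 2D, 9.94-fold higher. It passed the level filter through the DRCC libraries alone. PPP1R15A, the phosphatase subunit that restores translation by acting on eIF2alpha, averaged 67.1 ± 1.25 FPKM in DRCC and 14.9 ± 0.980 FPKM in 2D. DDIT4, an inhibitor of mTORC1 that also responds to low oxygen, was at 516, 511 and 525 FPKM in DRCC, against 90.2, 86.5 and 90.6 FPKM in 2D. For PPP1R15A and DDIT4 every DRCC library exceeded every 2D library, and 85.2% of all genes tested had formats that did not overlap. TRIB3 and SESN2, a pseudokinase that curbs ATF4 and a leucine sensor, rose by only 0.68 and 0.31. The secreted stress hormone GDF15 was at 10.8, 9.17 and 9.06 FPKM in DRCC, against 0.599, 0.238 and 0.561 FPKM in 2D, and the glycoprotein hormone STC2 averaged 74.5 ± 1.73 FPKM in DRCC and 27.1 ± 1.19 FPKM in 2D. FGF21 and NUPR1, further targets in other cells, did not reach the level filter.

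Promoter sequences of 3 of the risen genes are shown because they hold the letters of the amino acid response element to which ATF4 binds with CEBP partners. The search used TGATGNAA on both strands in RefSeq promoters of GRCh38.p14, 250 bases before to 50 bases after the annotated start. It was matched in 4 of 24 promoters of the ATF4 list (16.7%: ASNS, ATF3, CHAC1 and SLC3A2) and in 6 of 16 promoters of cytosolic tRNA synthetases (37.5%), against 3.67% of 27305 promoters and 1.48% of the 9912 promoters of tested genes. Capitals mark the match, which lies on the strand shown for ASNS (chr7:97872359-97872658, minus strand) and NARS1 (chr18:57621787-57622086, minus strand) and on the other strand for CHAC1 (chr15:40953221-40953520, plus strand).
ASNS: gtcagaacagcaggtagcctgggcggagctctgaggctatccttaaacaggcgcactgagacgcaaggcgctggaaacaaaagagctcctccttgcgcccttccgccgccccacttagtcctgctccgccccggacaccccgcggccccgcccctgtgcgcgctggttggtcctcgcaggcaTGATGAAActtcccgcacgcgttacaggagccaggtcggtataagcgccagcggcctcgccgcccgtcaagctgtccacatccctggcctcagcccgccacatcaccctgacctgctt
CHAC1: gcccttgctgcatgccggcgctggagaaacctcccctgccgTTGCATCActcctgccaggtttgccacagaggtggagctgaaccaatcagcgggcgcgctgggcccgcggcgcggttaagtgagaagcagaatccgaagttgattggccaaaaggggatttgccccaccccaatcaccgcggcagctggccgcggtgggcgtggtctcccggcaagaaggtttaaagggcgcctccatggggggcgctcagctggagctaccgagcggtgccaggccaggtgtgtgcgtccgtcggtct
NARS1: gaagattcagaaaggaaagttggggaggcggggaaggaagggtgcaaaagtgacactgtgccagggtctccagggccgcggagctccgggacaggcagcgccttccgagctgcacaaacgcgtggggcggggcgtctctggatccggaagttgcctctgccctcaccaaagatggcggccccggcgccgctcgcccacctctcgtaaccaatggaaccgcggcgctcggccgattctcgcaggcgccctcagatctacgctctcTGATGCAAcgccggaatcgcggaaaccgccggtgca
A match is a description of letters and says nothing of binding in these cells.

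Cytosolic tRNA synthetases, which charge tRNAs with their amino acids, rose in part: 14 of 20 rose and 6 fell, with a median of 0.69. EPRS1, the fused glutamyl and prolyl enzyme, was at 65.2, 68.8 and 69.9 FPKM in DRCC, against 19.2, 18 and 18.7 FPKM in 2D, and LARS1, the leucyl enzyme, at 78.3, 78.8 and 78.3 FPKM in DRCC, against 22.4, 22.3 and 22.9 FPKM in 2D. Both were over 3-fold higher with narrow spreads. NARS1, the asparaginyl enzyme whose promoter is shown above, was at 96.2, 108 and 94.9 FPKM in DRCC, against 38.4, 46.8 and 38.9 FPKM in 2D; RARS1, IARS1 and GARS1 rose by 1.27, 0.99 and 0.92. HARS1, the histidyl enzyme, went the other way, with 29.5, 29.6 and 28.8 FPKM in DRCC and 77, 71.4 and 76 FPKM in 2D (2.55-fold higher in 2D), and VARS1, QARS1, FARSA, KARS1 and WARS1 also fell.

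Genes of the unfolded protein response in the endoplasmic reticulum divided: 12 of 22 rose and 10 fell, with a median of 0.26 that turned to -0.10 once the GC and length trend was removed. The chaperone HSP90B1 was at 303, 302 and 305 FPKM in DRCC, against 108, 108 and 108 FPKM in 2D. HSPA5, the chaperone BiP, averaged 324 ± 8.92 FPKM in DRCC and 207 ± 5.2 FPKM in 2D, and HERPUD1, DNAJB9 and SEL1L, which act in the disposal or refolding of misfolded proteins, rose by 1.09, 1.05 and 1.37. CALR, a lectin chaperone, fell, averaging 312 ± 8.44 FPKM in DRCC and 579.9 ± 15.1 FPKM in 2D, and so did PDIA4, CRELD2 and SDF2L1. The letters of the ER stress element, ERSE, searched on both strands, were present in the promoters of both risen genes (HSPA5, HSP90B1, XBP1) and fallen ones (CALR, CRELD2), in 30.0% of 20 promoters of this list and 0.0806% of all. Cytosolic heat shock chaperones divided as well, with 10 of 22 higher, 11 lower and a median of 0.04 that was -0.16 after median-ratio scaling, -0.40 without the GC and length trend and -0.07 without 1 member that passed the filter through DRCC alone. HSP90AA1, the stress-inducible HSP90, was at 361, 357 and 365 FPKM in DRCC, against 122, 121 and 122 FPKM in 2D, while its constitutive partner HSP90AB1 averaged 488 ± 12.6 FPKM in DRCC and 863 ± 7.68 FPKM in 2D. The small heat shock protein gene HSPB8 averaged 21.3 ± 1.36 FPKM in DRCC and 3.4 ± 0.612 FPKM in 2D. HSPA8, the constitutive HSP70, fell, with 387 ± 11.9 FPKM in DRCC and 850.5 ± 14 FPKM in 2D. HSPA1A and HSPA1B fell by 1.42 and 1.22 in log2, and their values are uncertain because the genes are near-identical copies that share fragments.

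The arrestins that control glucose uptake were among the most strongly raised genes. TXNIP was at 212, 207 and 212 FPKM in DRCC, against 15.3, 15.6 and 16.2 FPKM in 2D, 13.4-fold higher (log2 change 3.66 ± 0.03, adjusted p = 1.5e-10). Its paralogue ARRDC4 was at 72, 78.2 and 70.2 FPKM in DRCC, against 6.92, 8.23 and 6.75 FPKM in 2D, 10.1-fold higher, and ARRDC3, an adaptor that sends receptors to degradation, averaged 11.9 ± 0.885 FPKM in DRCC and 1.67 ± 0.107 FPKM in 2D. For these genes no DRCC library came near a 2D library. MLXIPL, the factor ChREBP, averaged 12.9 ± 0.441 FPKM in DRCC and 5.05 ± 0.219 FPKM in 2D, and MLXIP, the factor MondoA, fell by 0.39. Glucose transporters differed among themselves: SLC2A1 fell, with 14.5, 14.3 and 13.9 FPKM in DRCC and 22.7, 22.3 and 23.2 FPKM in 2D, and SLC2A3 rose, with 11, 10.3 and 10.8 FPKM in DRCC and 4.54, 4.34 and 4.53 FPKM in 2D. Of the 12 tested genes of this list 8 rose and 3 fell, with a median of 0.71, or 0.44 with the GC and length trend removed and 0.26 after quantile normalization.

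The promoters of TXNIP (chr1:145996530-145996829, minus strand) and ARRDC4 (chr15:97960453-97960752, plus strand; RefSeq, GRCh38.p14) are shown because both genes rose about as much and both are textbook targets of ChREBP and MondoA. Capitals mark each CACGNG, the short E-box-like repeat of the carbohydrate response element, found on either strand; TXNIP holds 4 matches and ARRDC4 holds 3, of which a pair overlap.
TXNIP: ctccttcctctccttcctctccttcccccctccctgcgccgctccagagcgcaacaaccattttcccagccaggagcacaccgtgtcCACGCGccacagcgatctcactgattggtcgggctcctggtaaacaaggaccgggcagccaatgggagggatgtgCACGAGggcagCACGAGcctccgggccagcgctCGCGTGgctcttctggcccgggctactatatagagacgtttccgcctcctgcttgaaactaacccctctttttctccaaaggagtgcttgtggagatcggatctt
ARRDC4: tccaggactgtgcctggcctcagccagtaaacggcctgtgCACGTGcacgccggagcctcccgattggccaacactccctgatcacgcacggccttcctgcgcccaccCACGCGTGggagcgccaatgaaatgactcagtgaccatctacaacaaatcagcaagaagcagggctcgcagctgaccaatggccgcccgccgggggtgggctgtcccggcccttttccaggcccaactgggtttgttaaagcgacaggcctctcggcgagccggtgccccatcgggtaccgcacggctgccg
These letters are common. They occurred in 5 of 10 promoters of the list (50%), in 43.3% of the promoters of tested genes and in 30.4% of all promoters.

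Most glycolytic genes fell, while ENO2 and HK2 rose. Of 18 tested genes 15 fell, 2 rose and 1 did not pass the test, with a median of -0.70 that stayed below 0 under every scaling tried (-0.90 to -0.53). ENO1, enolase, was at 531, 517 and 532 FPKM in DRCC, against 1189.8, 1160.1 and 1183 FPKM in 2D (log2 change -1.16 ± 0.02, adjusted p = 3.5e-09). LDHA, which turns pyruvate into lactate, was at 312, 314 and 315 FPKM in DRCC, against 681, 673 and 675 FPKM in 2D, and PGK1, phosphoglycerate kinase, at 83, 82.6 and 85.2 FPKM in DRCC, against 198, 203 and 199.5 FPKM in 2D. All 3 were more than 2-fold higher in 2D. No library of DRCC reached the level of a 2D library, and 85.2% of all genes tested had formats that did not overlap. PKM, TPI1 and PGAM1, which catalyse other steps, fell by 1.30, 1.30 and 1.40 in log2, and GAPDH averaged 1263 ± 27.8 FPKM in DRCC and 2176 ± 48.2 FPKM in 2D. ENO2, the enolase typical of neurons, rose: it was at 34.1, 29.5 and 30.8 FPKM in DRCC, against 9.08, 9.44 and 9.48 FPKM in 2D. Genes induced by low oxygen moved apart from glycolysis. Of 24 tested hypoxia genes 17 rose and 6 fell, with a median of 0.43, or 0.12 with the GC and length trend removed and 0.21 after quantile normalization. VEGFA, the angiogenic factor, averaged 32.8 ± 0.610 FPKM in DRCC and 14.8 ± 0.351 FPKM in 2D. NDRG1, a stress-response gene, averaged 86.1 ± 2.57 FPKM in DRCC and 30.2 ± 0.646 FPKM in 2D, and P4HA1, a collagen prolyl hydroxylase, 43.1 ± 0.425 FPKM in DRCC and 15.2 ± 0.883 FPKM in 2D. BNIP3, a mitophagy receptor, and EGLN3, an oxygen-sensing prolyl hydroxylase, both standard targets of HIF, fell by 0.81 and 1.00. PDK1, which closes the entry of pyruvate into mitochondria, rose by 0.19, about the median of all genes, and CA9, another such target, did not pass the level filter.

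Subunits of the respiratory chain were lower in DRCC whether the nucleus or the mitochondrion encodes them. Of 44 nuclear subunits 39 fell and 2 rose, with a median of -0.65 and values between -0.86 and -0.41 under the scalings tried. ATP5MC1, a subunit of the proton ring of ATP synthase, was at 62.5, 59.7 and 61 FPKM in DRCC, against 207, 211 and 214 FPKM in 2D, 3.45-fold higher in 2D. ATP5F1B, the catalytic beta subunit, averaged 365 ± 3.37 FPKM in DRCC and 796 ± 14.8 FPKM in 2D, and UQCRFS1, the Rieske protein of complex III, 19.1 ± 1.7 FPKM in DRCC and 50.2 ± 2.13 FPKM in 2D. The 2 that rose were UQCRC2 and UQCRB, also of complex III, by 0.37 and 0.31. Of 13 mitochondrially encoded genes 10 fell and 1 rose, with a median of -1.09 (-0.65 after quantile normalization). ND2, a subunit of complex I, was at 813, 751 and 768 FPKM in DRCC, against 2633, 2712 and 2863 FPKM in 2D, and CYTB, of complex III, averaged 1166 ± 15.9 FPKM in DRCC and 2762 ± 64.2 FPKM in 2D. ND5 rose, with 2758, 2569 and 2675 FPKM in DRCC and 1896, 1953 and 2023 FPKM in 2D, and ND4, next to it on the mitochondrial genome, averaged 4567 ± 129 FPKM in DRCC and 4431 ± 41.4 FPKM in 2D without passing the test. These genes have near copies in the nuclear genome and lie on both strands, and the labels do not say how strand was treated in counting, so their values are uncertain.

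Most genes of ribosome assembly and most structural ribosomal protein genes were lower. Of 33 ribosome biogenesis genes 23 fell and 9 rose, with a median of -0.61. NOP16, RRP9 and RRS1, nucleolar assembly factors, averaged 47.3 ± 1.21, 20.1 ± 0.419 and 23.6 ± 1.11 FPKM in DRCC and 122 ± 4.07, 50.2 ± 1.82 and 57.4 ± 1.16 FPKM in 2D. POLR1G, a subunit of RNA polymerase I, was at 7.01, 7.33 and 6.96 FPKM in DRCC, against 28.2, 26.9 and 26.9 FPKM in 2D, with the DRCC libraries far below the 2D libraries. NOP58, a core protein of box C/D particles, rose, with 95.9, 96.7 and 95.2 FPKM in DRCC and 33.6, 37.5 and 36.2 FPKM in 2D, while NOP56, its partner in the same particle, averaged 132 ± 2.61 FPKM in DRCC and 231 ± 3.95 FPKM in 2D. The transcription factor gene MYC, which drives many of these genes, averaged 102 ± 3.11 FPKM in DRCC and 60.5 ± 1.42 FPKM in 2D. Of 76 cytosolic ribosomal protein genes 58 fell and 13 rose with a median of -0.26. It was -0.47 after median-ratio scaling, with 65 of 76 lower, -0.16 with the GC and length trend removed, and 0.10 after quantile normalization, with 41 higher and 20 lower. Single members are uncertain because processed copies share their sequence. RPLP0 averaged 1443 ± 36.9 FPKM in DRCC and 1660.0 ± 37.1 FPKM in 2D. Of 31 proteasome subunits 24 fell and 5 rose, with a median of -0.53 (-0.30 after quantile normalization). PSMB5, the chymotrypsin-like catalytic subunit, was at 142, 139 and 143 FPKM in DRCC, against 302, 294 and 313 FPKM in 2D, and PSMC6 and PSMD14, an ATPase and the deubiquitinase of the lid, rose by 1.04 and 0.79.

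Mitotic genes divided, with large rises in some and smaller falls in others. Of 32 tested genes 20 rose (against 52.5% of all genes) and 8 fell, with 16 at least 2-fold higher, and the median was 0.95, or 0.58 with the GC and length trend removed. TOP2A, the topoisomerase that untangles sister chromatids, was at 76.3, 80.6 and 78.5 FPKM in DRCC, against 9.92, 11.2 and 10.2 FPKM in 2D, 7.52-fold higher. CENPE, a kinetochore motor, was at 11.4, 13.7 and 10.9 FPKM in DRCC, against 1.09, 1.59 and 1.17 FPKM in 2D, and NUF2, part of the complex that holds microtubules, at 35.6, 34 and 33.7 FPKM in DRCC, against 5.16, 6.51 and 5.79 FPKM in 2D. The formats were far apart in each. CENPF, TTK and NDC80, further kinetochore genes, rose by 2.44, 2.32 and 2.01, and MKI67, the antigen of dividing cells, averaged 17.2 ± 0.585 FPKM in DRCC and 5.63 ± 0.274 FPKM in 2D. CCNB1, cyclin B1, fell: it was at 57.4, 54.3 and 57.6 FPKM in DRCC, against 133, 129 and 128 FPKM in 2D. The kinase PLK1 averaged 100.1 ± 1.14 FPKM in DRCC and 118 ± 2.53 FPKM in 2D, and AURKA, AURKB and BIRC5, which act with it at the spindle and centromere, fell by 0.46, 0.42 and 0.51. CDK1, the kinase partner of CCNB1, rose by 1.18. The genes of this list have a median GC content of 42.4%. In bulk RNA, more cells in mitosis and more RNA per cell cannot be told apart.

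Genes of DNA replication divided almost evenly: 15 of 36 rose and 18 fell, with a median of -0.11 that was 0.05 with the mitochondrially encoded genes left out, -0.32 after median-ratio scaling and -0.20 with the GC and length trend removed. The subunits of the MCM helicase fell for the most part: MCM2 was at 81.1, 80.7 and 81.9 FPKM in DRCC, against 144, 139.7 and 145 FPKM in 2D, MCM5 and MCM7 fell by 0.72 and 0.66, and MCM6 rose by 0.20. RFC4, of the clamp loader, was at 70.01, 70.1 and 70.5 FPKM in DRCC, against 24, 25.5 and 23.9 FPKM in 2D, and CDT1, which licenses origins, averaged 133 ± 2.31 FPKM in DRCC and 70.4 ± 3.01 FPKM in 2D. PCNA, the sliding clamp, rose by just 0.11. Nucleotide synthesis fell in 13 of 19 genes and rose in 5 (median -0.42, or -0.16 after quantile normalization). PFAS and CTPS1, of purine and CTP synthesis, averaged 16.2 ± 0.604 and 39 ± 0.683 FPKM in DRCC and 34.2 ± 1.29 and 73.7 ± 0.338 FPKM in 2D, and PPAT, the first enzyme of purine synthesis, rose by 0.61. Among G1 regulators 13 of 22 rose (against 52.5% of all genes) and 5 fell (against 31.8%), with a median of 0.22, or 0.10 with the trend removed. After median-ratio scaling 10 rose and 9 fell (median 0.02). CCND2, cyclin D2, was at 26.5, 26.2 and 28.1 FPKM in DRCC, against 7.04, 7.38 and 7.26 FPKM in 2D, while CCND1, cyclin D1, fell by 0.79 and CDK4, their kinase, by 0.93. The inhibitors CDKN1A and CDKN2D averaged 23 ± 0.520 and 16 ± 0.948 FPKM in DRCC and 9.27 ± 0.250 and 5.21 ± 0.555 FPKM in 2D, and CDKN2A fell by 1.00.

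Genes known as p53 targets rose more often than they fell, in a line whose p53 is bound by large T antigen. Of 21 tested genes 16 rose and 2 fell, with a median of 0.54, or 0.32 with the GC and length trend removed. Without 1 that passed the level filter through DRCC alone, 15 of 20 rose and 2 fell (median 0.47). GADD45A, which halts the cycle after damage and is also raised by ATF4 and other stress factors, was at 188, 191 and 185 FPKM in DRCC, against 30.8, 30.7 and 30.3 FPKM in 2D, 6.15-fold higher. ZMAT3, an RNA-binding protein, and MDM2, which degrades p53, averaged 5.71 ± 0.364 and 17.4 ± 0.760 FPKM in DRCC and 1.35 ± 0.184 and 8.68 ± 0.557 FPKM in 2D. BAX, the pore-forming death effector, and TP53I3, an oxidoreductase, fell by 0.58 and 0.67. Apoptosis regulators divided with 9 of 19 higher and 8 lower. PMAIP1, the BH3-only protein NOXA, was at 114, 134 and 111 FPKM in DRCC, against 17.4, 21.6 and 17.7 FPKM in 2D. No library overlapped, which held for 85.2% of all genes tested. BBC3, which encodes PUMA, averaged 17.4 ± 1.03 FPKM in DRCC and 7.86 ± 0.329 FPKM in 2D. The death inhibitors BIRC2 and XIAP rose by 1.24 and 1.09, and BID, which links death receptors to mitochondria, fell by 1.18.

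Immediate early genes respond within minutes to growth factors and stress. They rose in 21 of 23 cases and fell in 1, with a median of 0.74 (0.40 after quantile normalization). Without 2 that passed the level filter through DRCC alone, 19 of 21 rose and 1 fell (median 0.67). JUN, a core protein of AP-1, was at 486, 475 and 486 FPKM in DRCC, against 84.7, 81.9 and 86.6 FPKM in 2D, 5.71-fold higher (adjusted p = 3.1e-10). CCN1, a matricellular protein, was at 29.6, 28.5 and 30.2 FPKM in DRCC, against 7.02, 7.3 and 7.72 FPKM in 2D, and ARC averaged 6.32 ± 0.317 FPKM in DRCC and 0.792 ± 0.175 FPKM in 2D. ARC passed the level filter through DRCC alone. FOS and EGR1, the classical serum-induced genes, were low in both formats, with 2.69 ± 0.388 and 2.12 ± 0.199 FPKM in DRCC and 0.981 ± 0.160 and 1.25 ± 0.192 FPKM in 2D. Feedback genes of the MAPK pathway rose in 10 of 12 cases and fell in 1, with a median of 0.85 (0.49 after quantile normalization). Without 2 that passed the level filter through DRCC alone, 8 of 10 rose and 1 fell, with the same median. DUSP1, a phosphatase that turns off p38, JNK and ERK, was at 46.1, 46.7 and 46.8 FPKM in DRCC, against 12.9, 14 and 13.7 FPKM in 2D, and the ETS factor ETV4 averaged 5.58 ± 0.127 FPKM in DRCC and 1.25 ± 0.0908 FPKM in 2D. SPRY1, an inhibitor of receptor tyrosine kinase signalling, fell by 0.64. Of 13 KLF factors 10 rose and 3 fell (median 0.66, or 0.36 with the GC and length trend removed and 0.34 after quantile normalization), led by KLF10, an early target of TGF-beta, at 41.4 ± 3.6 FPKM in DRCC and 13.8 ± 1.48 FPKM in 2D.

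Of 14 Notch pathway genes 9 rose (against 52.5% of all genes) and 1 fell, with a median of 0.56 (0.34 after quantile normalization, with 8 higher and 5 lower). HES1, the best known target, was at 63.9, 57.7 and 59.7 FPKM in DRCC, against 19.5, 17.6 and 17.8 FPKM in 2D, and NRARP, a feedback inhibitor of Notch, at 241, 229 and 237 FPKM in DRCC, against 75.8, 74.8 and 78.7 FPKM in 2D. HES5, a further target that was outside the list and among the 15 largest rises, was at 16.1, 13.9 and 14.3 FPKM in DRCC, against 0.962, 0.748 and 0.593 FPKM in 2D, and it passed the level filter through DRCC alone. For HES1 and NRARP every DRCC library was above every 2D library, and 85.2% of all genes tested had formats that did not overlap. The ligands JAG1, JAG2 and DLL1 rose by 0.71, 0.76 and 0.79, and the receptor NOTCH2 fell by 0.25. Of 18 TGF-beta and BMP genes 12 rose and 5 fell (median 0.33, or 0.10 after quantile normalization). Without 2 that passed the level filter through DRCC alone, 10 of 16 rose and 5 fell (median 0.31). INHBA and SKIL, an activin subunit and a repressor of SMADs, were at 1.91 ± 0.119 and 6.07 ± 0.554 FPKM in DRCC and 0.0158 ± 0.00556 and 1.56 ± 0.433 FPKM in 2D, whereas the inhibitory SMAD6 averaged 2.39 ± 0.121 FPKM in DRCC and 5.63 ± 0.198 FPKM in 2D. INHBA passed the level filter through DRCC alone. Of 16 YAP/TAZ targets 11 rose and 2 fell, with a median of 0.37 that was 0.12 with the GC and length trend removed and -0.01 after quantile normalization. ANKRD1 was at 5.27, 5.06 and 5.35 FPKM in DRCC, against 0.259, 0.114 and 0.241 FPKM in 2D, and passed the level filter through DRCC alone. CCN2, another standard target, averaged 5.53 ± 0.136 FPKM in DRCC and 2.88 ± 0.239 FPKM in 2D. Of 11 Wnt feedback genes 3 rose and 4 fell (median -0.12, or 0.03 without the mitochondrially encoded genes). NOTUM, an enzyme that inactivates Wnt ligands, averaged 1.97 ± 0.252 FPKM in DRCC and 0.161 ± 0.0218 FPKM in 2D, and AXIN2, the usual readout of the pathway, averaged 3.07 ± 0.259 FPKM in DRCC and 3.41 ± 0.249 FPKM in 2D without passing the test. NOTUM passed the level filter through DRCC alone, and without it 2 of 10 Wnt genes rose and 4 fell (median -0.12).

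Inflammatory, interferon and clock genes showed smaller or mixed changes. Only 9 of 23 NF-kB genes passed the level filter; 5 rose and 2 fell, with a median of 0.46 that was -0.07 after quantile normalization. Without 3 that passed the filter through DRCC alone, 2 of 6 rose and 2 fell (median -0.01). The subunits went in opposite directions, since NFKB2 and RELB, of the noncanonical arm, averaged 23.6 ± 1.11 and 3.7 ± 0.563 FPKM in DRCC and 8.69 ± 0.448 and 0.970 ± 0.153 FPKM in 2D, while NFKB1 averaged 5.5 ± 0.0924 FPKM in DRCC and 12 ± 0.416 FPKM in 2D. Of 11 interferon genes 4 rose and 3 fell, with a median of 0.10 that was -0.09 after median-ratio scaling and -0.25 after quantile normalization. PSMB9, an immunoproteasome subunit, rose to 1.84 ± 0.171 FPKM in DRCC, against 0.579 ± 0.119 FPKM in 2D, and the antiviral IFIT1 fell to 0.364 ± 0.0275 FPKM in DRCC, against 1.1 ± 0.0583 FPKM in 2D. PSMB9 passed the level filter through DRCC alone and IFIT1 through 2D alone. Without these 2 genes, 3 of 9 interferon genes rose and 2 fell (median 0.10). Of 14 clock genes 10 rose and 2 fell, with a median of 0.27 that was 0.17 with the GC and length trend removed and -0.10 after quantile normalization. BHLHE40, a repressor of clock genes that also responds to stress and low oxygen, was at 52, 49.4 and 51 FPKM in DRCC, against 13.3, 13.1 and 13.3 FPKM in 2D, while DBP, a direct target of the clock, fell by 0.51.

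Enzymes of lipid synthesis were lower in DRCC. Of 24 cholesterol genes 18 fell and 2 rose, with a median of -0.61 that lay between -0.82 and -0.45 under the other scalings. NSDHL, a late enzyme of the pathway, was at 8.79, 8.23 and 9.71 FPKM in DRCC, against 29.9, 27.4 and 30.5 FPKM in 2D. Every DRCC library was below every 2D library, and 85.2% of all genes tested had formats that did not overlap. SC5D, the sterol desaturase, rose by 0.55. In fatty acid synthesis 7 of 13 genes fell and 4 rose (median -0.20, or -0.45 with the GC and length trend removed, -0.38 after median-ratio scaling and -0.49 after quantile normalization). SCD, which desaturates stearate, was at 77.7, 77.3 and 80.6 FPKM in DRCC, against 213, 211 and 214 FPKM in 2D. ACLY and FASN, which make acetyl-CoA and palmitate, averaged 73.1 ± 1.33 and 32.3 ± 1.06 FPKM in DRCC and 173 ± 3.31 and 73 ± 2.38 FPKM in 2D.

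Oxidative stress genes did not rise as a group. Of 16 NRF2 targets 5 rose and 9 fell, with a median of -0.25, or -0.52 with the GC and length trend removed. HMOX1, heme oxygenase, was at 274, 271 and 274 FPKM in DRCC, against 57.7, 53.7 and 56.3 FPKM in 2D, 4.88-fold higher (adjusted p = 9.9e-10). Of this list HMOX1 and SLC7A11 alone rose at least 2-fold. PRDX1, a peroxiredoxin, averaged 237 ± 4.28 FPKM in DRCC and 627 ± 14.2 FPKM in 2D, TALDO1, of the pentose phosphate pathway, 114 ± 0.537 FPKM in DRCC and 262 ± 12.3 FPKM in 2D, and NQO1, a quinone reductase often used as the readout of NRF2, 1.93 ± 0.252 FPKM in DRCC and 4.16 ± 0.479 FPKM in 2D. GCLM, of glutathione synthesis, averaged 7.58 ± 0.399 FPKM in DRCC and 7.41 ± 0.697 FPKM in 2D and did not pass the test. Of 10 iron genes 6 rose (against 52.5% of all genes) and 3 fell (against 31.8%). Their median was 0.24, or 0.01 with the GC and length trend removed. TFRC, the transferrin receptor, and STEAP3, a ferrireductase, fell by 0.54 and 1.22, and FTH1, the ferritin heavy chain, averaged 746 ± 25.2 FPKM in DRCC and 711 ± 25.9 FPKM in 2D without passing the test. Beside MT1X, the metallothioneins MT2A and MT1F fell to 43.5 ± 3.67 and 5.36 ± 0.388 FPKM in DRCC, against 68.3 ± 9.21 and 9.8 ± 0.814 FPKM in 2D, and SLC39A10, a zinc importer, rose by 1.13. Of the 6 tested genes for metallothioneins and zinc transport 2 rose and 3 fell (median -0.31). Lysosome and autophagy genes divided, with 10 of 24 higher and 13 lower (median -0.12, or 0.03 after quantile normalization and 0.04 without the mitochondrially encoded genes); GABARAPL1, an autophagosome protein, averaged 50.8 ± 0.333 FPKM in DRCC and 22.5 ± 0.223 FPKM in 2D.

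Most adhesion receptor genes were higher in DRCC, and actin genes divided. Integrin and laminin subunits rose in 17 of 19 cases and fell in 2, with a median of 0.68, or 0.42 with the GC and length trend removed, 0.28 after quantile normalization and 0.54 without 3 that passed the level filter through DRCC alone. ITGB1, the shared beta subunit of most matrix receptors, was at 30.1, 29.3 and 29.8 FPKM in DRCC, against 13.9, 14 and 14.7 FPKM in 2D, and ITGA6, a laminin receptor subunit, at 6.24, 5.92 and 5.77 FPKM in DRCC, against 2.38, 2.5 and 2.54 FPKM in 2D. In both, all DRCC libraries were above all 2D libraries, and 85.2% of all genes tested had formats that did not overlap. Cadherin, keratin and EMT genes rose in 15 of 17 cases and fell in none, with a median of 0.60 (0.29 after quantile normalization). Without 3 that passed the level filter through DRCC alone, 12 of 14 rose and none fell (median 0.57). ZEB1, a repressor of epithelial genes, averaged 5.05 ± 0.0872 FPKM in DRCC and 0.456 ± 0.0444 FPKM in 2D, and it passed the level filter through DRCC alone. Epithelial genes rose beside it, since KRT8, a simple epithelial keratin, averaged 60.5 ± 3.25 FPKM in DRCC and 30.1 ± 1.86 FPKM in 2D, and CDH1, E-cadherin, 2.45 ± 0.196 FPKM in DRCC and 1.16 ± 0.0722 FPKM in 2D. KRT8 is also 1 of the PANC-1 markers whose sum was higher in DRCC. Of 16 matrix genes 8 rose and 5 fell, with a median of 0.18 that was -0.23 after quantile normalization; COL6A2 and FN1 averaged 22.3 ± 0.329 and 5.53 ± 0.363 FPKM in DRCC and 11.1 ± 0.794 and 2.59 ± 0.0261 FPKM in 2D, and the basement membrane chain COL4A2 fell by 0.74. Of 23 actin and SRF genes 9 rose and 8 fell, with a median of 0.06 that was -0.15 after median-ratio scaling and -0.09 with the GC and length trend removed. ACTB, beta-actin, was at 605, 579.7 and 614 FPKM in DRCC, against 1773, 1677 and 1739 FPKM in 2D, 2.88-fold higher in 2D, and ACTG1, the other cytoplasmic actin, fell by 0.59. ACTA2, smooth muscle actin, rose, averaging 6.72 ± 0.208 FPKM in DRCC and 2.38 ± 0.447 FPKM in 2D. PFN1 and CFL1, which load and sever filaments, fell by 1.09 and 0.99.

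Genes tied to the identity of the line moved in both directions. Of the 10 neuronal genes that HEK293T cells express at the filter level, 8 rose and none fell, with a median of 0.76 (0.35 after quantile normalization). Without 1 that passed the filter through DRCC alone, 7 of 9 rose and none fell (median 0.66). MAP1B, a microtubule-associated protein of neurons, was at 13.9, 14.1 and 13.7 FPKM in DRCC, against 3.14, 3.34 and 3.04 FPKM in 2D, and NEFL, neurofilament light, at 13.3, 12.3 and 12.4 FPKM in DRCC, against 4.23, 4.22 and 4.34 FPKM in 2D. Of 13 kidney developmental factors 6 rose and 5 fell, with a median of 0.02 that was -0.11 after median-ratio scaling, -0.45 after quantile normalization and -0.02 without 1 factor that passed the filter through DRCC alone. WT1, SIX2 and CITED1, factors of nephron progenitors, averaged 1.74 ± 0.198, 20.03 ± 1.02 and 12.2 ± 1.3 FPKM in DRCC and 4.34 ± 0.303, 31.6 ± 1.05 and 24.9 ± 0.775 FPKM in 2D, SIX4 rose by 0.73, and PAX2 averaged 1.59 ± 0.284 FPKM in DRCC and 1.56 ± 0.0692 FPKM in 2D without passing the test. Genes of the primary cilium rose in 21 of 25 cases and fell in 3, with a median of 0.47 that was 0.11 once the GC and length trend was removed, -0.01 after quantile normalization and 0.30 without 3 genes that passed the filter through DRCC alone. CEP290, of the ciliary transition zone, averaged 8.5 ± 0.465 FPKM in DRCC and 0.877 ± 0.215 FPKM in 2D. Chromatin regulators rose in 17 of 28 cases (against 52.5% of all genes) and fell in 5 (against 31.8%). Their median of 0.38 was 0.09 with the trend removed and 0.10 after quantile normalization. NIPBL, the loader of cohesin, and ATRX, a remodeller of heterochromatin, averaged 6.65 ± 0.204 and 9.01 ± 0.887 FPKM in DRCC and 1.18 ± 0.0287 and 1.86 ± 0.379 FPKM in 2D, while CHD4 and SMARCA4, ATPases of the NuRD and BAF complexes, fell by 0.70 and 0.53. Only 10 of 32 clustered histone genes were tested; 2 rose and 5 fell. All 32 together took 0.0481% ± 0.00166 of fragments in DRCC and 0.0258% ± 0.00077 in 2D, the higher share being in each of the 3 DRCC libraries (exact two-sided permutation p = 0.1, the smallest possible). Histone values are uncertain because the copies are alike and most of their transcripts lack a poly(A) tail.

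**Figure D3:**
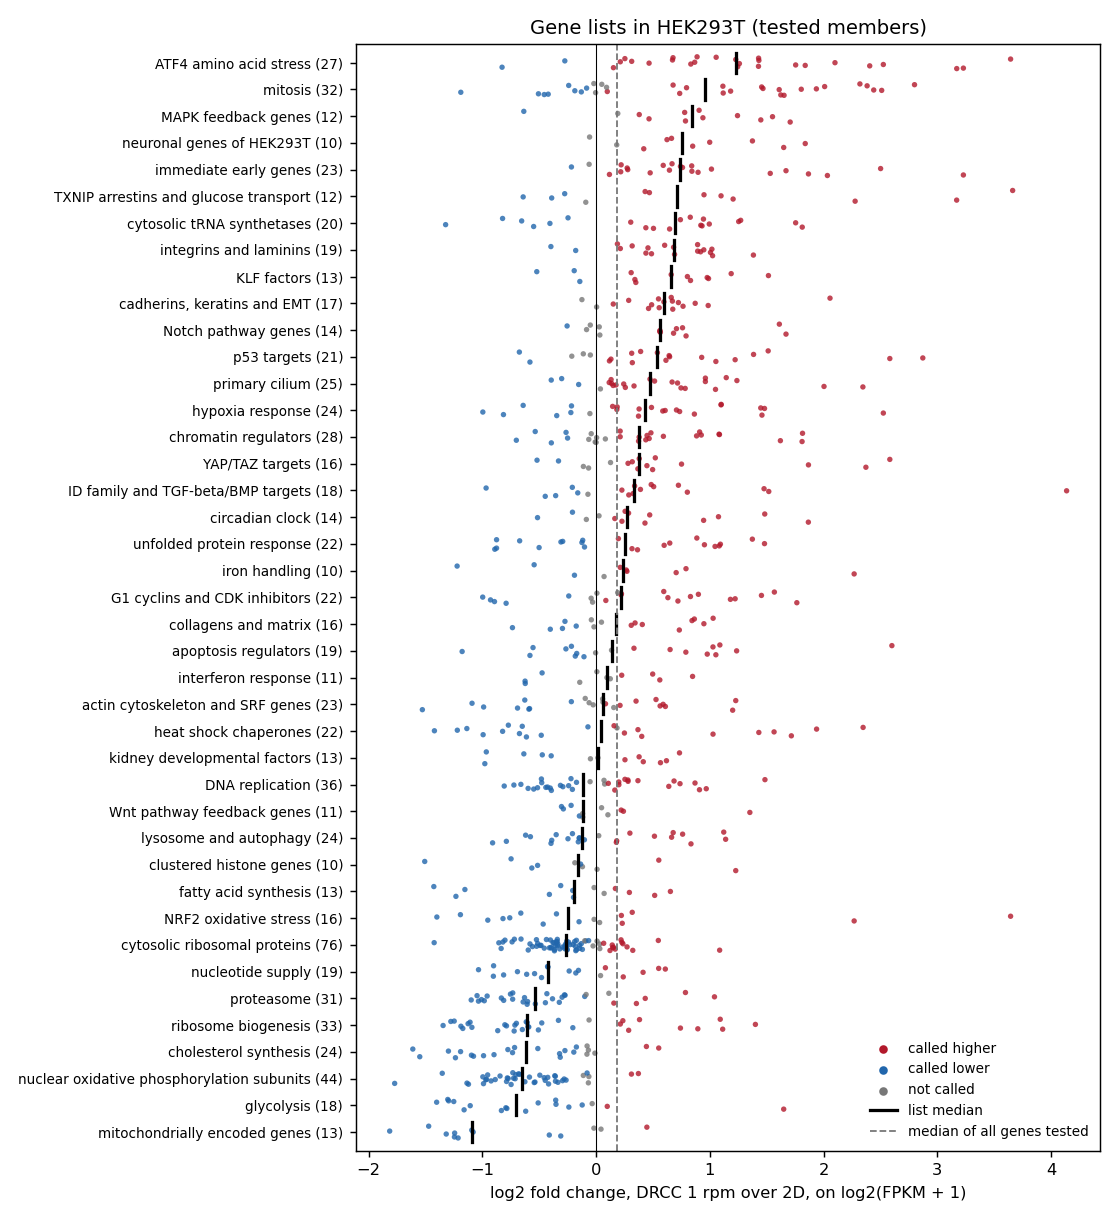
Log2 change, DRCC 1 rpm minus 2D, in HEK293T cells for each tested member of the 41 gene lists with at least 10 tested members, lists ordered by their median (red, called higher; blue, called lower; grey, not called). The ATF4 list lies highest (median 1.23), the mitochondrially encoded genes lowest (median -1.09), and all genes have a median of 0.18.

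DRCC at 1 rpm was set directly against AggreWell, where spheroids grow without rotation. Both this comparison and the next share the 1 rpm libraries with the results above. DRCC had higher ATF4 targets, TXNIP and mitotic genes and lower hypoxia, glycolysis and cholesterol genes than AggreWell. Of 12548 genes tested in all 12 HEK293T libraries 9488 differed (75.6%), 5250 higher in DRCC (41.8%) and 4238 lower (33.8%), but a 2-fold difference was met by only 251 higher genes (2.00%) and 190 lower ones (1.51%), with a median of 0.04. The balance turned to 4697 higher and 4782 lower after median-ratio scaling, and to 4486 and 4717 with the GC and length trend removed. SLC7A11 averaged 35.6 ± 3.99 FPKM in DRCC and 1.86 ± 0.0958 FPKM in AggreWell (log2 difference 3.67 ± 0.09, adjusted p = 1.6e-12), which is close to its 2D level. TXNIP averaged 210.3 ± 2.61 FPKM in DRCC and 23.6 ± 0.301 FPKM in AggreWell, NGFR 39.3 ± 0.820 FPKM in DRCC and 2.6 ± 0.207 FPKM in AggreWell, and G0S2 17.4 ± 0.358 FPKM in DRCC and 0.531 ± 0.144 FPKM in AggreWell. At the other end PGK1 averaged 83.6 ± 1.4 FPKM in DRCC and 454 ± 2.42 FPKM in AggreWell, -2.43 in log2, and the aldolase gene ALDOC 6.3 ± 0.283 FPKM in DRCC and 40.8 ± 0.612 FPKM in AggreWell. GBE1, which branches glycogen, averaged 3.3 ± 0.158 FPKM in DRCC and 29.5 ± 0.392 FPKM in AggreWell, and TCEAL7 2.45 ± 0.272 FPKM in DRCC and 20.2 ± 1.05 FPKM in AggreWell.

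By group, 23 of 27 ATF4 targets were higher in DRCC than in AggreWell and 2 lower (median 0.84), and 27 of 32 mitotic genes were higher and 1 lower (median 0.34). Hypoxia genes were lower in 21 of 24 cases and higher in 1 (median -0.94), glycolytic genes lower in 17 of 18 and higher in 1 (median -1.03), and cholesterol genes lower in 22 of 24 and higher in 1 (median -0.88). BNIP3, which fell against 2D, averaged 40.1 ± 1.72 FPKM in DRCC and 182 ± 2.7 FPKM in AggreWell, and VEGFA, which rose against 2D, averaged 32.8 ± 0.610 FPKM in DRCC and 43.5 ± 0.630 FPKM in AggreWell. LDHA averaged 314 ± 1.38 FPKM in DRCC and 1138 ± 9.27 FPKM in AggreWell, so AggreWell stood above 2D (676 ± 4.06 FPKM) and DRCC below it. Members of the respiratory chain encoded in the mitochondrion differed less here, with 3 of 13 higher, 6 lower and a median of -0.07. ND2 averaged 777 ± 32.1 FPKM in DRCC and 1073 ± 56.3 FPKM in AggreWell, and both lay far below its 2D level of 2736 ± 117 FPKM.

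The 2 speeds were closer in the size of their differences. Against DRCC at 30 rpm 6598 of 12548 genes differed (52.6%), 4134 higher at 1 rpm (32.9%) and 2464 lower (19.6%), but 13 genes were higher by 2-fold or more (0.104%) and 3 lower by as much (0.0239%). Of the genes that differed 62.7% were higher at 1 rpm with the deposited scaling, 48.1% after median-ratio scaling, 49.0% after quantile normalization and 47.4% with the GC and length trend removed, so which speed had more of the higher genes changed with the scaling. HMOX1 averaged 273 ± 2.18 FPKM at 1 rpm and 621 ± 1.97 FPKM at 30 rpm (log2 difference -1.18 ± 0.04, adjusted p = 5.4e-10), with AggreWell at 36 ± 2.12 FPKM and 2D at 55.9 ± 2.04 FPKM. ADAMTS1, a secreted metalloprotease, averaged 146 ± 2.15 FPKM at 1 rpm and 318 ± 0.217 FPKM at 30 rpm, and ANXA1, an annexin that is also among the PANC-1 markers, 15.1 ± 0.249 FPKM at 1 rpm and 31.1 ± 2.13 FPKM at 30 rpm. INHBE and GDF15 were higher at 1 rpm, with 24.7 ± 0.819 and 9.69 ± 0.994 FPKM at 1 rpm and 10.04 ± 0.820 and 3.55 ± 0.309 FPKM at 30 rpm. ANKRD37, a HIF target, averaged 6.41 ± 0.778 FPKM at 1 rpm and 2.04 ± 0.131 FPKM at 30 rpm. SMIM11, whose 30 rpm libraries spread widely (7.04 ± 6.36 FPKM, against 0.808 ± 0.0332 FPKM at 1 rpm) and which has a near-identical copy, is uncertain. Hypoxia genes were higher at 1 rpm in 18 of 24 cases and lower in none (median 0.39), integrins and laminins in 16 of 19 and none (median 0.36), and matrix genes in 14 of 17 and none (median 0.28), whereas TXNIP and SLC7A11 averaged 210.3 ± 2.61 and 35.6 ± 3.99 FPKM at 1 rpm and 208 ± 4.24 and 34.7 ± 0.858 FPKM at 30 rpm and did not pass the test. The log2 differences of TXNIP and SLC7A11 were 0.02 ± 0.03 and 0.03 ± 0.09.

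**Figure D4:**
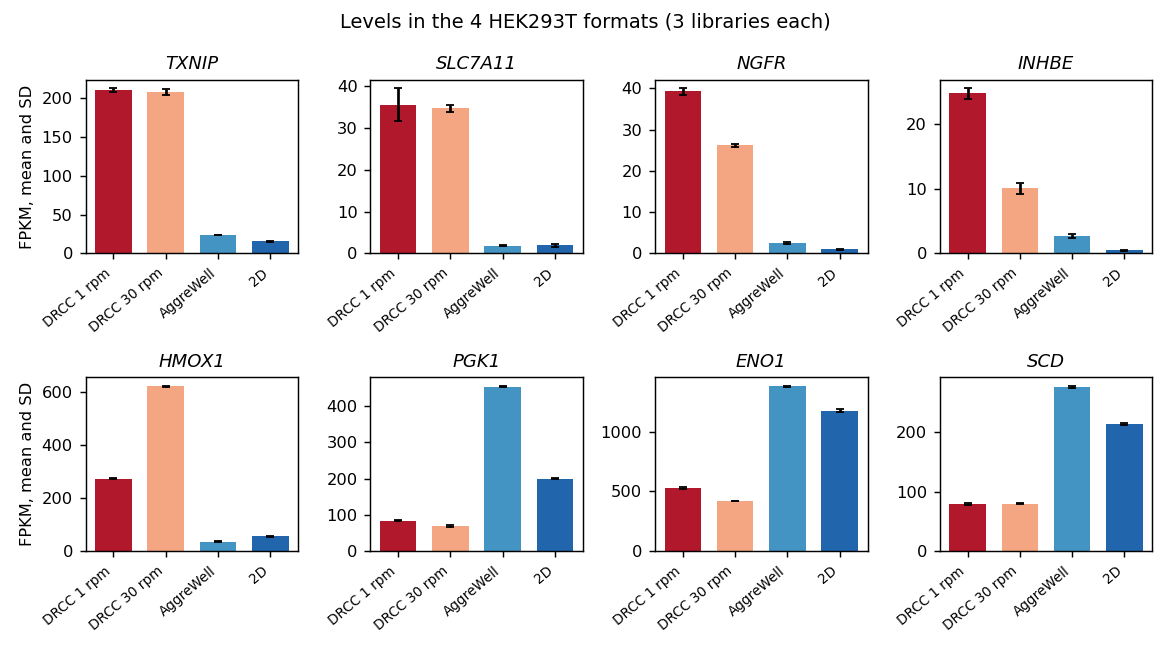
Mean FPKM with SD over 3 libraries of 8 genes in HEK293T cells in DRCC 1 rpm, DRCC 30 rpm, AggreWell and 2D. TXNIP and SLC7A11 are high at both speeds and low in AggreWell and 2D, HMOX1 is highest at 30 rpm (621 FPKM), and PGK1 is highest in AggreWell (454 FPKM).

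The response of HEK293T cells to DRCC at 1 rpm was then set against that of PANC-1 cells, with the difference between the 2 responses tested as an interaction in limma. The responses of DNA replication, mitosis and cholesterol synthesis genes differed between the lines, and that of TXNIP did not pass the test of a difference. Of 12931 genes 9684 had responses that differed (74.9%), 5113 higher in HEK293T (39.5%) and 4571 lower (35.3%), with 867 (6.70%) and 584 (4.52%) differing by at least 2-fold. The balance turned to 4666 higher and 4947 lower after quantile normalization, and to 4473 and 4786 with the GC and length trend removed. In PANC-1 alone 5794 of 11142 genes rose (52.0%) and 3804 fell (34.1%). Of 10359 genes tested in both lines 3815 rose in both, 2187 fell in both and 1674 went in opposite directions. TXNIP rose by 3.66 in HEK293T and by 3.54 in PANC-1, and NGFR by 4.33 in HEK293T and by 4.06 in PANC-1. In PANC-1 TXNIP averaged 18.97 ± 0.143 FPKM in DRCC and 0.720 ± 0.201 FPKM in 2D. HEK293T levels were 210.3 ± 2.61 FPKM in DRCC and 15.7 ± 0.458 FPKM in 2D. A level under 1 FPKM is compressed on log2(FPKM + 1), so like log2 changes do not mean like folds. TXNIP also passed the PANC-1 level filter through DRCC alone, so its PANC-1 call is no support. The interaction of TXNIP was 0.12 ± 0.09 (adjusted p = 0.24) and that of NGFR 0.28 ± 0.09 (adjusted p = 0.018). CHAC1 rose by 2.41 in HEK293T and fell by 0.44 in PANC-1, where it averaged 0.875 ± 0.118 FPKM in DRCC and 1.55 ± 0.158 FPKM in 2D, whereas ASNS rose in both, by 3.17 in HEK293T and 1.42 in PANC-1.

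For all 36 DNA replication genes the response was higher in HEK293T than in PANC-1 (median difference 1.31), since all 36 fell in PANC-1 with a median of -1.07 and the HEK293T median was -0.11. PCNA averaged 255 ± 3.34 FPKM in DRCC and 237 ± 2.57 FPKM in 2D in HEK293T, against 76.2 ± 1.01 FPKM in DRCC and 201 ± 6.71 FPKM in 2D in PANC-1. Of 32 mitotic genes the response was higher in HEK293T for 31 and lower for none; MKI67 averaged 17.2 ± 0.585 FPKM in DRCC and 5.63 ± 0.274 FPKM in 2D in HEK293T, against 26 ± 0.298 FPKM in DRCC and 47.8 ± 4.4 FPKM in 2D in PANC-1. Cholesterol genes went the other way, with 21 of 24 responses lower in HEK293T and 1 higher (median -1.14), and in PANC-1 18 rose and 6 fell. HMGCS1, the first committed enzyme of the mevalonate branch, fell by 0.32 in HEK293T and rose by 1.99 in PANC-1. NF-kB genes had lower responses in HEK293T in 15 of 19 cases and higher in 1 (median -1.02), and 14 of the 23 on the list did not reach the level filter in HEK293T alone. Glycolytic genes fell in both lines, 15 of 18 in HEK293T and 14 of 19 in PANC-1, where the median was -0.34.

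**Figure D5:**
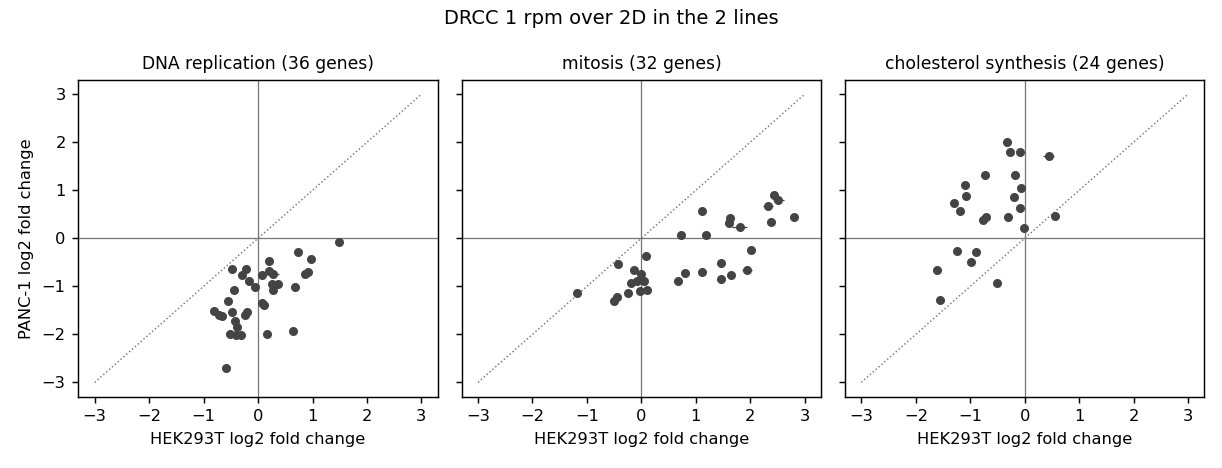
Log2 change, DRCC 1 rpm minus 2D, in HEK293T (x axis) against PANC-1 (y axis) for 36 DNA replication, 32 mitosis and 24 cholesterol genes, with SE bars; the dotted line marks equal responses. All 36 replication genes lie below the line, with PANC-1 changes below 0, and 21 of 24 cholesterol genes had a significantly lower response in HEK293T.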

How the data were processed

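Total RNA was extracted with TRIzol and made into libraries with the VAHTS Universal V10 kit, per the labels' protocols. Tools named in the submitters' processing notes are fastp, HISAT2, HTSeq and R 3.2.0, with the build mm10, although the gene symbols are human (25154 genes matched human RefSeq). Versions of the other tools, the kit's treatment of strand and the selection of RNA are not given in the sources used here. The authors deposited FPKM values per gene. Values were whole multiples of 1 fragment for 26449 of 26450 genes (within 0.01), which gave each library's fragments. The remaining gene was left out of the totals. Relative depth, scaled to the first 2D library, implied 35434406 to 36060412 fragments in DRCC, above the 35020379 to 35675959 recovered. In 2D it implied 38778091 to 39342534, close to the recovered totals. The part of this gap in the shares of fragments was not tested.

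Log2(FPKM + 1) of the 6 libraries was fitted with limma 3.58.1 in R 4.3.3, one coefficient for format, Benjamini-Hochberg adjusted over all 12127 genes. The comparisons with AggreWell and 30 rpm used all 12 HEK293T libraries and that with PANC-1 used 12 libraries of both lines. Shares of fragments were tested by exact permutation (Python 3.11.15, pandas 2.3.3, SciPy 1.17.1). The fits were checked on simulated data. Libraries of the same number deviated together (correlations of 0.179, 0.467 and 0.171), and so did the DRCC and 2D libraries numbered 1 and 3 across numbers (0.154 and 0.243), while the other 4 cross pairs were negative. Each same-number value was above 0.1, but so were the 2 positive cross values, so these correlations cannot show that the numbers pair the libraries. No label gives a pairing. The replicate block assumes it and serves only as an alternative.

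The 43 gene lists and the comparison itself were chosen with earlier results of these data known. Named genes were the 15 largest rises and 15 largest falls among protein-coding genes of at least 5 FPKM in the higher format with no overlap, the first 5 changed genes of each list and 4 genes each way per other comparison; further list members were named after their values were seen. Alternatives were a pseudocount of 0.1, other filters, median-ratio and quantile scaling, leaving out mitochondrially encoded genes, robust variances, voom on recovered fragments, a replicate block, leaving out each library and, added after the data were seen, removing the trend on GC content and length. Genes with near-identical copies, and overlapping or antisense genes, can share fragments. Values of some genes that these rules name are not reported here.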

Additional observations from a re-analysis of the deposited data

Results flagged for a closer look

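8 genes stood out because the response to DRCC at 1 rpm went in opposite directions in the 2 lines and the difference passed the interaction test in limma. They are the 4 largest differences each way among the 1625 protein-coding genes that did so.

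ANKRD1, a YAP/TAZ target, averaged 5.23 ± 0.146 FPKM in DRCC and 0.205 ± 0.0786 FPKM in 2D in HEK293T, against 0.169 ± 0.0301 FPKM in DRCC and 4.94 ± 0.163 FPKM in 2D in PANC-1, a difference in response of 4.72 in log2 (adjusted p = 2e-13). CCN2, another such target, averaged 5.53 ± 0.136 FPKM in DRCC and 2.88 ± 0.239 FPKM in 2D in HEK293T, against 7.96 ± 0.324 FPKM in DRCC and 74.7 ± 3.04 FPKM in 2D in PANC-1, a difference of 3.83 (adjusted p = 7e-13). PTX3, a secreted pentraxin, averaged 2.68 ± 0.230 FPKM in DRCC and 0.584 ± 0.274 FPKM in 2D in HEK293T, against 2.19 ± 0.109 FPKM in DRCC and 11.7 ± 1.32 FPKM in 2D in PANC-1 (difference 3.21, adjusted p = 1.5e-09). PTX3 averaged under 1 FPKM in HEK293T 2D, as did ANKRD1, which also averaged under 1 FPKM in PANC-1 DRCC. ANKRD1 passed the level filter through 1 format in each line, so its opposite calls are no support. PTX3 passed it in HEK293T through DRCC alone, so its HEK293T call, which the opposite directions need, is no support either. TNFRSF12A, the receptor for TWEAK, averaged 62.4 ± 1.02 FPKM in DRCC and 15.6 ± 0.496 FPKM in 2D in HEK293T, against 69.2 ± 1.08 FPKM in DRCC and 157 ± 0.759 FPKM in 2D in PANC-1 (difference 3.10, adjusted p = 4.1e-14).

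Of the genes that fell in HEK293T and rose in PANC-1, DBP, a clock-controlled factor, averaged 5.63 ± 0.250 FPKM in DRCC and 8.47 ± 0.438 FPKM in 2D in HEK293T, against 32.4 ± 1.61 FPKM in DRCC and 1.74 ± 0.183 FPKM in 2D in PANC-1 (difference -4.12, adjusted p = 8.9e-13). NFKBIA, the inhibitor of NF-kB, averaged 13.8 ± 0.798 FPKM in DRCC and 18.8 ± 0.563 FPKM in 2D in HEK293T, against 57.6 ± 1.71 FPKM in DRCC and 9.46 ± 0.564 FPKM in 2D in PANC-1 (difference -2.91, adjusted p = 3.8e-12). SCD averaged 78.5 ± 1.83 FPKM in DRCC and 213 ± 1.67 FPKM in 2D in HEK293T, against 571 ± 4.55 FPKM in DRCC and 206 ± 3.68 FPKM in 2D in PANC-1 (difference -2.90, adjusted p = 2.9e-14). EFNA1, a membrane-bound ephrin ligand, averaged 3.77 ± 0.668 FPKM in DRCC and 5.28 ± 0.639 FPKM in 2D in HEK293T, against 17.5 ± 1.11 FPKM in DRCC and 2.5 ± 0.350 FPKM in 2D in PANC-1 (difference -2.81, adjusted p = 4.9e-09).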

How the results depend on the processing

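Over all alternatives, values of the named genes kept direction and side of the threshold in 4077 cases, lost significance in 19 (9 genes) and changed sign in 8 (6 genes). The sign changes were ACSL3 (-0.24), IFIT5 (-0.14) and IREB2 (-0.17) with the GC and length trend removed, PORCN (-0.11) and RNF43 (-0.23) after quantile normalization, and MTF1 after median-ratio scaling (-0.001967), quantile normalization (-0.31) and trend removal (-0.13); the cause was not tested. List medians moved by more than the replicate spread in 308 of their values and did not in 421.

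At a mean of at least 5 FPKM, where fewer genes are tested, 6811 genes changed and 3538 rose, 870 of them at least 2-fold. Against AggreWell 3264 were then higher (146 at least 2-fold), against 30 rpm 2677 (7 at least 2-fold), and between lines 6144 differed, 3026 upward, with 526 and 369 at least 2-fold. With a pseudocount of 0.1, which shrinks low genes less, 2348 genes rose at least 2-fold, 593 were higher and 384 lower than in AggreWell, 102 higher and 11 lower than at 30 rpm, and 1459 and 1088 differed between lines. At least 2-fold rises numbered 2511 by voom, which called 10240 genes, 795 after quantile normalization and 662 with the trend removed. At least 2-fold falls numbered 663 after median-ratio scaling, 510 after quantile normalization and 174 without mitochondrially encoded genes. Against 30 rpm 5 genes were at least 2-fold lower after quantile normalization, and 7 higher and 5 lower with the trend removed. Causes beyond the construction of each alternative were not tested.

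With the replicate block 10616 genes changed (6596 up, 4020 down), 9651 differed from AggreWell, 6901 from 30 rpm and 9876 between lines. The assumed pairing moved no count of calls by over 1.5 times. Leaving out 1 library gave 9120 to 10165 changed genes, 5368 to 6384 risen and 3625 to 3781 fallen, 1192 to 1598 and 319 to 347 at least 2-fold. Against AggreWell the ranges were 8981 to 9123, 4987 to 5067 and 3962 to 4136 (2-fold 232 to 263 and 180 to 199), against 30 rpm 5841 to 6064, 3617 to 3850 and 2107 to 2234 (2-fold 12 to 17 and 3 to 4), and between lines 9077 to 9691, 4623 to 5178 and 4298 to 4517 (2-fold 784 to 892 and 547 to 600).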

Other observations

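Some gene families were read after their values were seen and are given as a description. Of 724 long noncoding RNAs tested 434 rose and 121 fell (median 0.37), beside 5867 and 3720 of 11297 protein-coding genes (median 0.17). The difference was not tested, and all genes in the quintile of lowest level had the same median of 0.37, with 1589 of 2426 higher and 317 lower. Long noncoding RNAs took 1.19% ± 0.0035 of fragments in DRCC and 0.718% ± 0.0027 in 2D. The nuclear RNA MALAT1, found in splicing speckles, was at 64.5, 71 and 63.9 FPKM in DRCC, against 2.72, 2.94 and 2.63 FPKM in 2D, and NEAT1, the scaffold of paraspeckles, was at 17.2, 18.1 and 17.5 FPKM in DRCC, against 2.35, 2.54 and 2.47 FPKM in 2D. No library of the formats overlapped, which held for 85.2% of all genes tested. Hosts of small nucleolar RNAs rose in 14 of 22 cases and fell in 6 (median 0.27). Of these, SNHG32 averaged 282 ± 3.11 FPKM in DRCC and 56.6 ± 3.7 FPKM in 2D. GAS5, another host whose transcript is degraded when it is translated, averaged 801 ± 17 FPKM in DRCC and 219.9 ± 7.97 FPKM in 2D. DANCR, a further host, went the other way, with 23.8 ± 0.455 FPKM in DRCC and 55.4 ± 0.906 FPKM in 2D.

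Splicing factors of the SRSF family fell in 9 of 12 cases and rose in 2 (median -0.96, or -1.02 with the GC and length trend removed), and HNRNP genes fell in 13 of 21 and rose in 6 (median -0.26, or -0.71). SRSF11 rose, averaging 65.4 ± 8.88 FPKM in DRCC and 31.1 ± 5.4 FPKM in 2D. Mitochondrial ribosomal proteins fell in 61 of 74 cases and rose in 7 (median -0.60). Of 326 ZNF genes 230 rose and 55 fell (median 0.47, or 0.11 with the trend removed). Of 34 HOX genes 8 rose and 21 fell (median -0.20). HOXB4 averaged 12.5 ± 0.459 FPKM in DRCC and 5.07 ± 0.533 FPKM in 2D, while HOXB13 averaged 4.64 ± 0.275 FPKM in DRCC and 10.7 ± 0.400 FPKM in 2D. Of 13 EIF3 subunits 7 rose and 5 fell (median 0.21, or -0.02 with the trend removed). Antisense partners and overlapping transcripts cannot be told apart in these values.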
